A study of Mus musculus with 39 samples.

Results

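The 7 genes described here are Hmgcs1, Idi1, Fdps, Sqle, Lss and Cyp51, which encode enzymes of cholesterol synthesis, and Srebf2, which encodes the transcription factor SREBP2. They were chosen by name, with earlier results of these data known, and no receptor gene is among them. The gene lists used below were also chosen with those results known. Counts set beside the shares of all tested genes are therefore descriptions. A gene was read from the probe sets whose only gene symbol in the platform annotation was its own, which gave 18 probe sets (5 for Hmgcs1, 3 each for Lss and Cyp51, 2 each for Idi1, Fdps and Srebf2, and 1 for Sqle). The 7 genes are among 18193 genes with such a probe set and among the 12580 of them bright enough to be tested, and all 7 passed that filter.

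The study measured RNA of whole liver from male B6C3F1/Crl mice, the offspring of C57BL/6 and C3H/He parents, on 39 Affymetrix mouse arrays. Mice drank water with 0.05% (w/v) phenobarbital, a barbiturate that activates the nuclear receptor CAR in liver, or served as controls. Livers were taken at day 1, 7, 28 or 91. The day 1 controls have 4 arrays, and every other group has 5. The labels give no replicate numbers, so those used below follow the order of the arrays within each group. The animals arrived at 29 to 32 days of age and had 5 days to acclimatise, so treatment started at 34 to 37 days of age if it followed directly, and the ages would then be 35 to 38 days at day 1 and 125 to 128 days at day 91. No group carried a transgene or deletion per the labels. The labels do not state that arrays came from separate animals, so p-values reflect the spread among these samples, which may be technical.

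The deposited values are log2 signals, so a difference of 1 is a doubling. Differences between groups are given on that scale with their standard error (SE) from a limma fit over all 12580 genes, and a gene was called at a Benjamini-Hochberg adjusted p under 0.05. The treatment was visible in every array, since Cyp2b10, the classical CAR target, lay at or below 8.37 in all controls and at or above 13.41 in all treated arrays. Hepatocyte marker genes were bright throughout, with array means of 14.23 to 14.47 over 5 markers. Exocrine pancreas markers averaged 11.23 in day 1 phenobarbital replicate 3, against 6.47 to 7.10 in the other arrays. Day 7 phenobarbital replicate 3 had the highest neutrophil (9.33) and Kupffer cell (10.61) marker means, and the identifier of day 28 control replicate 2 does not fall in the number range of the rest. Whole liver was measured, so fewer cells of a type and less RNA per cell cannot be told apart in any value below.

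Cholesterol is built from acetyl-CoA through mevalonate, isoprenoids, squalene and lanosterol. SREBP2 sits as an inactive precursor in the endoplasmic reticulum and, when membrane sterol is low, is escorted by SCAP to the Golgi, cleaved, and enters the nucleus, where it switches on the genes of the whole route as well as its own gene. INSIG proteins hold SCAP back when sterol is high. Liver is a main site of this synthesis, and its rate is known to follow feeding, the time of day and the return of cholesterol from the gut.

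Windows of 300 bases around the start of transcription, from 250 bases before it to 50 after it, were available from RefSeq (GRCm38.p6) for 5 of the 7 genes, namely Hmgcs1, Lss, Cyp51, Idi1 and Srebf2. The windows of Hmgcs1, of Cyp51 and Idi1 (the pair that varied together most closely) and of Srebf2 (the gene that varied least with the others) are shown 5′ to 3′ on the strand of the gene. Capitals mark matches to the sterol regulatory element letters TCACNCCAC and to the CCAAT box letters ATTGG on either strand.
Hmgcs1, chr13:119690101-119690400, plus strand: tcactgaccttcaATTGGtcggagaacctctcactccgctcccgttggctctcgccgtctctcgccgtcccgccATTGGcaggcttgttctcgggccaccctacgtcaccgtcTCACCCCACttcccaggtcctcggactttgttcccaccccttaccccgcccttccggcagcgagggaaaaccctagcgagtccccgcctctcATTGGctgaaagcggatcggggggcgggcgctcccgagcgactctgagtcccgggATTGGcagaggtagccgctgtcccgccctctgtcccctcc
Cyp51, chr5:4104648-4104947, minus strand: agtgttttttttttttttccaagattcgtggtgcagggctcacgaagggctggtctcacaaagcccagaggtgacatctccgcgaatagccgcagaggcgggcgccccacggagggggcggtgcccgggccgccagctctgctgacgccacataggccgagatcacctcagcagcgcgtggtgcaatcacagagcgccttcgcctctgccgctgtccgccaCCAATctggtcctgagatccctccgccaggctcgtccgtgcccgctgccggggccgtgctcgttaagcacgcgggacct
Idi1, chr13:8885356-8885655, plus strand: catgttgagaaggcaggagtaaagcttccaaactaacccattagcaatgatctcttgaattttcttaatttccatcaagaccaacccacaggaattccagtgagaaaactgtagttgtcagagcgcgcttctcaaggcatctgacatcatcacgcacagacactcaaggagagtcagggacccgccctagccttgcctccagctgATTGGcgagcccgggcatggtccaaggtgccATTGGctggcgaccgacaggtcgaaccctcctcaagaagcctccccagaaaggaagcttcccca
Srebf2, chr15:82147019-82147318, plus strand: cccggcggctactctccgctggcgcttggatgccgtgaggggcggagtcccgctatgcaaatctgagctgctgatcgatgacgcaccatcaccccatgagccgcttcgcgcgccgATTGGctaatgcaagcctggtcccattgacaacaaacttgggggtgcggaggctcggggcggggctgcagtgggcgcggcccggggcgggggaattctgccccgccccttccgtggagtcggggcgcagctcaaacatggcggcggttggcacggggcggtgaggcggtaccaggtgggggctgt
The sterol element letters occurred in 1 of the 5 windows, that of Hmgcs1, 137 bases before the start, and in 1.24% of all 32851 windows in the same table. The CCAAT letters occurred in 5 of 5, against 37.4% of all windows. The GC box letters GGGCGG, which SP1-type factors bind, occurred in 5 of 5 (35.7% of all), and the E-box letters CACGTG in 0 of 5 (7.15%). These matches describe letters only, on both strands, and none of the searched motifs overlapped another in these windows. Only exact matches were counted, so a window without a match may still hold a variant of the sterol element.

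Treated and control livers were compared at each day to ask how the route responds to phenobarbital. Sqle, squalene epoxidase, was the member that stood higher in treated liver most lastingly, with a call at days 1, 28 and 91. Srebf2 was called higher at day 1 and lower at day 7. Lss and Fdps were each called higher at day 28, and Lss also at day 1, though the Lss differences were not seen with its probe set 1426913_at. Hmgcs1, Cyp51 and Idi1 were not called at any of the 4 days.

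**Figure D1:**
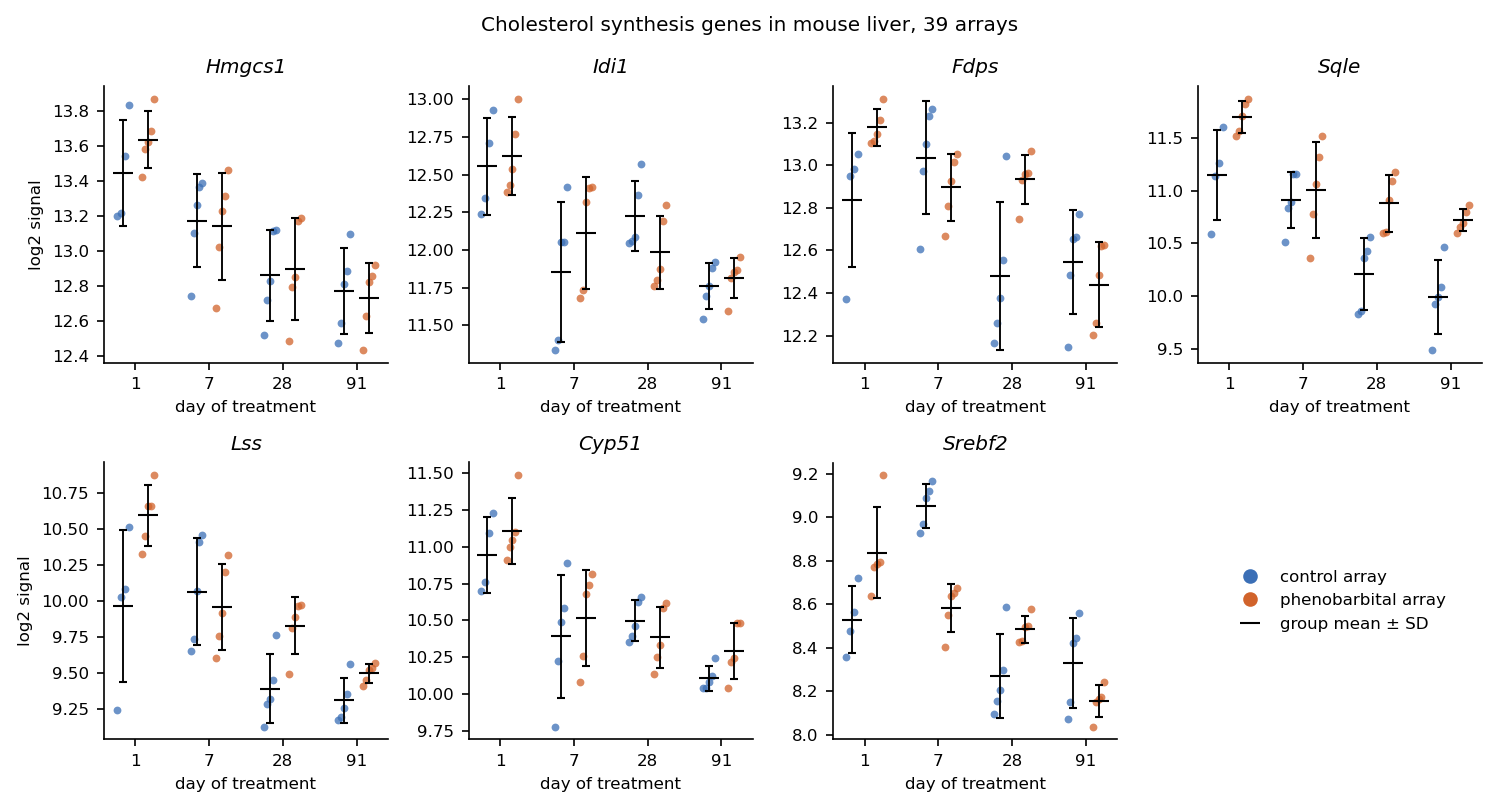
Log2 signal of each gene on each array (points) by day of treatment, with group mean and SD (n = 4 arrays in day 1 controls, 5 elsewhere); blue, controls, orange, phenobarbital. The vertical scale differs between genes. In all 7 genes every treated array of day 91 lay below every treated array of day 1, and the treated Sqle arrays lay above all controls at days 28 and 91.

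Sqle had its highest group mean in treated liver of day 1, at 11.70 ± 0.16 (SD, n = 5), ahead of day 1 controls at 11.15 ± 0.42 (n = 4). Then came treated day 7 (11.01 ± 0.46), control day 7 (10.91 ± 0.27), treated day 28 (10.88 ± 0.27), treated day 91 (10.72 ± 0.11), control day 28 (10.21 ± 0.34) and control day 91 (9.99 ± 0.35, n = 5 each). Neighbours in this order differed by less than the larger of their SDs, except the first pair and the step from treated day 91 to control day 28. Srebf2 followed another order. It was highest in day 7 controls (9.05 ± 0.10), followed by treated day 1 (8.84 ± 0.21), treated day 7 (8.58 ± 0.11), control day 1 (8.53 ± 0.15), treated day 28 (8.49 ± 0.06), control day 91 (8.33 ± 0.21), control day 28 (8.27 ± 0.19) and treated day 91 (8.15 ± 0.07). Neighbours from treated day 7 downward differed by less than the larger SD. The other 5 enzymes also had their highest mean in treated liver of day 1 (Hmgcs1 13.64, Lss 10.59, Cyp51 11.11, Idi1 12.63 and Fdps 13.18) and their lowest at day 91, in controls for Lss (9.31), Cyp51 (10.11) and Idi1 (11.76) and in treated liver for Hmgcs1 (12.73) and Fdps (12.44).

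At day 1, 3 of the 7 genes were called higher and 0 lower, against 15.8% of all tested genes called higher and 16.7% called lower. The median difference of the members was 0.31, against 0.01 over all tested genes, and all 7 differences were above 0. Lss encodes lanosterol synthase, which closes squalene epoxide into the first sterol ring system. Its control arrays read 9.25, 10.51, 10.03 and 10.08 and its treated arrays 10.66, 10.66, 10.87, 10.45 and 10.32. The groups overlapped, with 2 treated arrays below the highest control. The difference was 0.63 (SE 0.18, adjusted p = 0.00656). Another Lss probe set, 1426913_at, gave -0.05 (adjusted p = 0.864 in the fit of all probe sets).

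Sqle, whose enzyme makes that epoxide and limits the flow to sterols, read 10.59, 11.61, 11.27 and 11.14 in day 1 controls and 11.52, 11.57, 11.87, 11.83 and 11.71 in treated arrays. Here too 2 treated arrays lay below the highest control. The difference was 0.55 (SE 0.20, adjusted p = 0.0309). Srebf2 read 8.36, 8.72, 8.56 and 8.48 in controls and 9.20, 8.80, 8.64, 8.77 and 8.79 in treated arrays, so that 1 treated array fell within the range of the controls. Its difference was 0.31 (SE 0.10, adjusted p = 0.0167).

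Fdps, farnesyl diphosphate synthase, makes the isoprenoid from which squalene and the lipid anchors of proteins are built. At day 1 its controls read 12.37, 13.05, 12.98 and 12.95 and its treated arrays 13.15, 13.31, 13.21, 13.11 and 13.10. No treated array overlapped a control, yet the difference of 0.34 (SE 0.15) was not called (adjusted p = 0.0706). Control replicate 1 was the lowest of the 4 controls for Fdps, Lss, Sqle, Srebf2, Hmgcs1 and Idi1. Without it none of the 7 genes was called at day 1, while 4 were without control replicate 2, the array highest in every member. The spike-in mean was taken over the bacterial and phage hybridization controls (BioB, BioC, BioD and Cre), which are added before hybridization. It was 10.55 to 10.85 in treated and 10.91 to 10.97 in control arrays of day 1. Its part in these results was not tested beyond the fit with it as a covariate, in which Lss alone was called.

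At day 7 no member was called higher and 1 was called lower, against 5.64% of tested genes called higher and 11.4% called lower. Srebf2 read 9.12, 9.17, 8.93, 9.09 and 8.97 in controls and 8.40, 8.55, 8.65, 8.64 and 8.68 in treated arrays. All treated arrays lay below all controls. The difference was -0.47 (SE 0.09, adjusted p = 0.000599), and the second Srebf2 probe set, 1426744_at, gave -0.36 (SE 0.12, adjusted p = 0.042 in the fit of all probe sets).

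The spike-in mean separated the same arrays at day 7, with 9.58 to 10.27 in controls and 10.76 to 10.97 in treated liver. With that mean as a covariate the Srebf2 difference was -0.23 (adjusted p = 0.267), and this was the only alternative in 24 that ended the call. The 6 enzymes had differences of -0.14 to 0.26 at day 7. Sqle, for example, read 10.89, 10.52, 11.16, 11.16 and 10.83 in controls and 10.36, 10.78, 11.52, 11.07 and 11.32 in treated arrays. The treated range enclosed that of the controls, and the 95% interval of the difference ran from -0.28 to 0.48.

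At day 28, 3 members were called higher and 0 lower, against 11.2% and 18.1% of all tested genes, with a member median of 0.22 (all genes -0.02). Sqle read 9.86, 10.36, 9.83, 10.43 and 10.56 in controls and 11.09, 10.91, 11.18, 10.60 and 10.61 in treated arrays. Every treated array was above every control, the nearest being 10.60 and 10.56. The difference was 0.67 (SE 0.19, adjusted p = 0.00712), a 1.59-fold higher signal.

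Fdps read 12.55, 12.26, 12.16, 12.38 and 13.04 in day 28 controls and 12.93, 12.96, 13.07, 12.96 and 12.75 in treated arrays. Control replicate 5 lay within the treated range and the other controls below it. The difference was 0.46 (SE 0.14, adjusted p = 0.0121), and without control replicate 3 the adjusted p was 0.0525. Lss read 9.46, 9.13, 9.28, 9.32 and 9.77 in controls and 9.89, 9.81, 9.97, 9.97 and 9.50 in treated arrays. The groups overlapped through control replicate 5 and treated replicate 5. Its difference of 0.44 (SE 0.17, adjusted p = 0.0469) kept its call in 10 of 24 alternatives. Probe set 1426913_at of Lss gave -0.02 (adjusted p = 0.951 in the fit of all probe sets).

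Srebf2 had a difference of 0.22 at day 28 (SE 0.09, adjusted p = 0.0769). It was called after median centring (0.25, adjusted p = 0.0363), under array weights (0.26, adjusted p = 0.0108), without control replicate 5 (0.30, adjusted p = 0.0129) and when values were quantile normalized (0.29, adjusted p = 0.0263). The difference between 3′ and 5′ probe sets of control transcripts, a sign of RNA degradation or incomplete labelling, was 0.42 to 0.50 in treated arrays of day 28 and 0.52 to 0.81 in their controls. With it as a covariate none of the 7 genes was called at day 28, and Sqle had an adjusted p of 0.222. Markers of endothelial cells (4 of 6) and stellate cells (3 of 6) were lower in treated liver at that day, with stellate marker means of 8.41 to 8.84 against 8.95 to 9.09, and their part in the results was not tested.

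At day 91, Sqle was the only member called, and it was higher (all tested genes, 4.62% higher and 16.1% lower). Its controls read 9.49, 10.47, 9.92, 9.99 and 10.09 and its treated arrays 10.79, 10.60, 10.87, 10.65 and 10.70. All treated arrays lay above all controls. The difference was 0.73 (SE 0.19, adjusted p = 0.006), a 1.66-fold higher signal, and it was called in all 24 alternatives run. The 3′ minus 5′ difference (0.45 to 0.87 in controls, 0.54 to 0.69 in treated arrays) and the spike-in mean overlapped between these groups. Stellate cell marker means did not, at 8.51 to 8.75 in treated and 8.771 to 8.996 in control arrays, and their part in the Sqle difference was not tested.

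The other 6 genes lay between -0.18 (Srebf2, adjusted p = 0.179) and 0.19 (Lss and Cyp51) at day 91. Hmgcs1, the cytosolic synthase that makes the precursor of mevalonate, had a 95% interval of -0.35 to 0.27 at that day. Cyp51, the lanosterol demethylase, had one of -0.12 to 0.49, and Idi1, which interconverts the isoprenoid building blocks, one of -0.30 to 0.41. Across the 4 days the intervals of these 3 genes lay within -0.59 and 0.61, so differences of that size in either direction cannot be set aside.

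**Figure D2:**
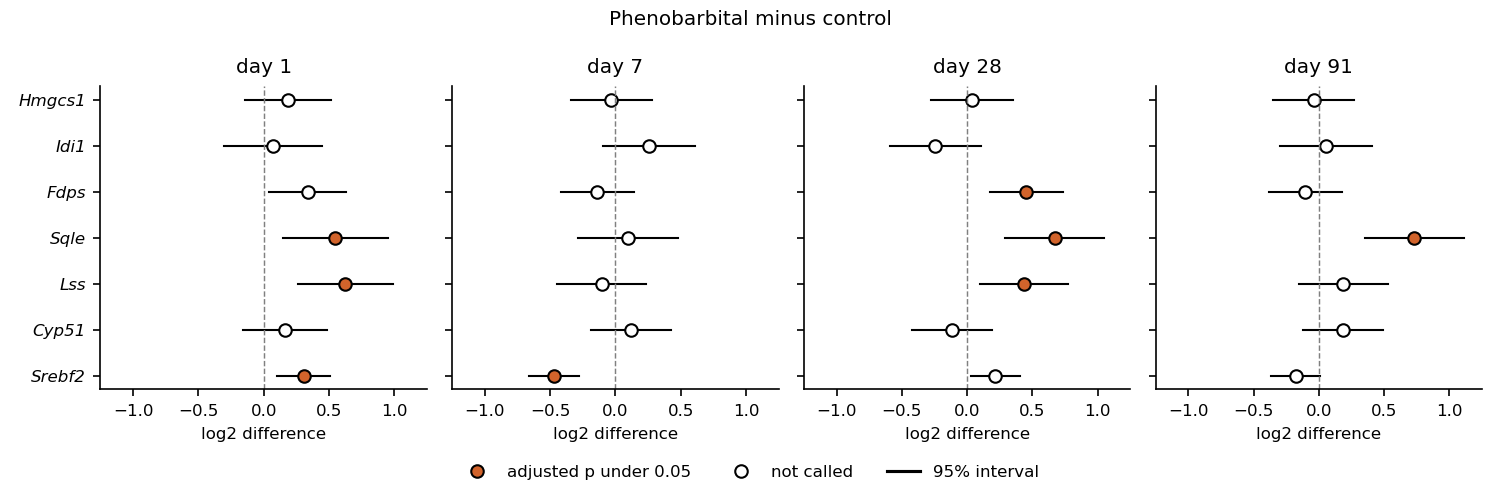
Phenobarbital minus control in log2 signal for each gene at each day, with 95% intervals from the limma fit; filled points were called at an adjusted p under 0.05. Sqle lay at 0.55, 0.10, 0.67 and 0.73 at days 1, 7, 28 and 91, and Srebf2 at 0.31, -0.47, 0.22 and -0.18.

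The treatment effect was compared between days. Srebf2 was called in all 4 such contrasts and in the F test over days (F = 14.3, adjusted p = 0.00015). Its effect was 0.78 lower at day 7 than at day 1 (SE 0.14, adjusted p = 0.000188), 0.69 higher at day 28 than at day 7 (SE 0.13, adjusted p = 0.00257), then lower again at day 91 than at day 28, by 0.39 (SE 0.13, adjusted p = 0.0323). From day 1 to day 91 the effect dropped by 0.48 (SE 0.14, adjusted p = 0.00815). Once the spike-in mean entered the model, none of these 4 contrasts was called for Srebf2. The day 91 with 28 call held in 23 of 34 alternatives. With the second Srebf2 probe set, 1426744_at, only the contrast of day 7 with day 1 was called (-0.71, adjusted p = 0.00636), and the other 3 were 0.51, -0.23 and -0.42 (adjusted p = 0.0539, 0.392 and 0.087).

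Fdps was also called in the F test (F = 4.82, adjusted p = 0.0242). Its effect was 0.59 higher at day 28 than at day 7 (SE 0.19, adjusted p = 0.0417) and then dropped by 0.56 to day 91 (SE 0.19, adjusted p = 0.037), and these calls held in 15 and 19 of 34 alternatives. The effect on Lss was 0.73 lower at day 7 than at day 1 (SE 0.24, adjusted p = 0.0297), and with the Lss probe set 1426913_at alone the contrast was 0.07. For Sqle no contrast between days was called (adjusted p of 0.144 to 0.886), so its effect of 0.10 at day 7 was not shown to differ from those at the other days. Over all tested genes 21.3%, 11.8%, 21.7% and 30.4% were called in the contrasts of day 7 with 1, 28 with 7, 91 with 28 and 91 with 1, and 35.1% in the F test, against 2, 2, 2, 1 and 2 of the 7 members.

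Control livers were compared over time. At day 91, 5 of the 7 genes were called lower than at day 1 and 0 higher, against 16.6% of tested genes called lower. The member median was -0.68 and that of all tested genes 0.04. These 5 calls (Hmgcs1, Sqle, Lss, Cyp51 and Idi1) held in all 23 alternatives. Sqle fell the furthest of the 7, by 1.16 (SE 0.20, adjusted p = 2.26e-05), from 10.59 to 11.61 at day 1 to 9.49 to 10.47 at day 91, with no overlap.

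Cyp51 read 10.76, 11.23, 11.09 and 10.70 in day 1 controls and 10.25, 10.09, 10.12, 10.04 and 10.04 at day 91. The groups were apart, and the day 91 values lay close together. The difference was -0.84 (SE 0.16, adjusted p = 9.77e-05). Idi1 read 12.24, 12.93, 12.71 and 12.34 at day 1 and 11.92, 11.88, 11.76, 11.54 and 11.70 at day 91, again with no overlap, a difference of -0.79 (SE 0.18, adjusted p = 0.000948).

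Hmgcs1 read 13.20, 13.84, 13.54 and 13.22 in day 1 controls and 12.59, 12.88, 13.10, 12.47 and 12.81 in those of day 91. All day 91 arrays were lower. The difference was -0.68 (SE 0.16, adjusted p = 0.00139), and all 5 Hmgcs1 probe sets were called lower, from -0.66 to -2.17 in the fit of all probe sets. Lss was lower too (-0.66, SE 0.18, adjusted p = 0.00408), with day 1 control replicate 1 (9.25) inside the day 91 range of 9.18 to 9.56. Fdps (-0.30, adjusted p = 0.111) and Srebf2 (-0.20, adjusted p = 0.115) were not called. For Srebf2 this depended on the probe set, since 1426744_at was called lower (-0.47, adjusted p = 0.00642), as was the mean of both (-0.34, adjusted p = 0.00968).

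The days between did not fall in 1 common step. At day 7, Cyp51 (-0.55, SE 0.16, adjusted p = 0.00785) and Idi1 (-0.70, SE 0.18, adjusted p = 0.00386) were called lower than at day 1, against 16.4% of tested genes called lower. Srebf2 was called higher by 0.52 (SE 0.10, adjusted p = 0.000254), with all day 7 controls above all day 1 controls, but its second probe set gave 0.14 (adjusted p = 0.455). The spike-in mean was 10.91 to 10.97 in day 1 controls and 9.58 to 10.27 in day 7 controls, and with it as a covariate none of these 3 genes was called. At day 28, Hmgcs1 (-0.59), Sqle (-0.94), Lss (-0.58) and Cyp51 (-0.45) were called lower, against 11.8% of tested genes, and Idi1 (-0.33, adjusted p = 0.215) was not. Of these, Sqle alone was called without day 1 control replicate 2.

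In treated liver all 7 genes were called lower at day 91 than at day 1, against 28.0% of tested genes called lower, with a member median of -0.81 (all genes -0.04). For each of the 7 every day 91 array lay below every day 1 array, and each call held in all 24 alternatives. The spike-in mean was also apart between these groups, at 10.55 to 10.85 at day 1 and 10.88 to 11.28 at day 91. So was the 3′ minus 5′ difference, at 0.40 to 0.51 and 0.54 to 0.69. The part of these measures was not tested beyond the fits with each as a covariate. Lss had a difference of -1.10 (SE 0.17, adjusted p = 1.39e-06), from 10.32 to 10.87 at day 1 to 9.41 to 9.57 at day 91, while its probe sets 1426913_at and 1420014_at gave -0.65 (adjusted p = 0.00162) and 0.01 (adjusted p = 0.96). Sqle fell by 0.98 (SE 0.19, adjusted p = 4.41e-05) and Hmgcs1 by 0.91 (SE 0.15, adjusted p = 7.57e-06).

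Fdps dropped by 0.74 (SE 0.14, adjusted p = 2.98e-05), from 13.10 to 13.31 at day 1 to 12.21 to 12.63 at day 91. Srebf2 dropped by 0.68 (SE 0.09, adjusted p = 1.92e-07), from 8.64 to 9.20 down to 8.04 to 8.24. Cyp51 and Idi1 each fell by 0.81. Of the 7, Srebf2 was called in the contrast of day 91 with day 1 given above, though not with its second probe set. Sqle declined in both groups. Its treated arrays of day 91 (10.60 to 10.87) lay above day 1 control replicate 1 (10.59) and below replicates 2, 3 and 4 (11.61, 11.27 and 11.14).

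The ages of the mice, the time of sampling and the makeup of the liver cannot be told apart from the day in these comparisons. Kupffer cell markers were lower in controls at day 91 than at day 1 (6 of 6 called, array means of 8.31 to 8.52 against 9.03 to 9.56). So were endothelial (6 of 6, 8.01 to 8.35 against 8.71 to 9.05) and stellate markers (5 of 6, 8.771 to 8.996 against 9.514 to 9.995). In treated liver 6 of 6, 6 of 6 and 5 of 6 were lower at day 91. Hepatocyte marker means were 14.32 to 14.37 at day 1 and 14.34 to 14.44 at day 91 in controls, close to the highest value of the whole table (15.12). Of 5 hepatocyte markers, 1 was called higher and 3 lower at day 91 in controls, and likewise in treated liver. Their part in the decline of the 7 genes was not tested.

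**Figure D3:**
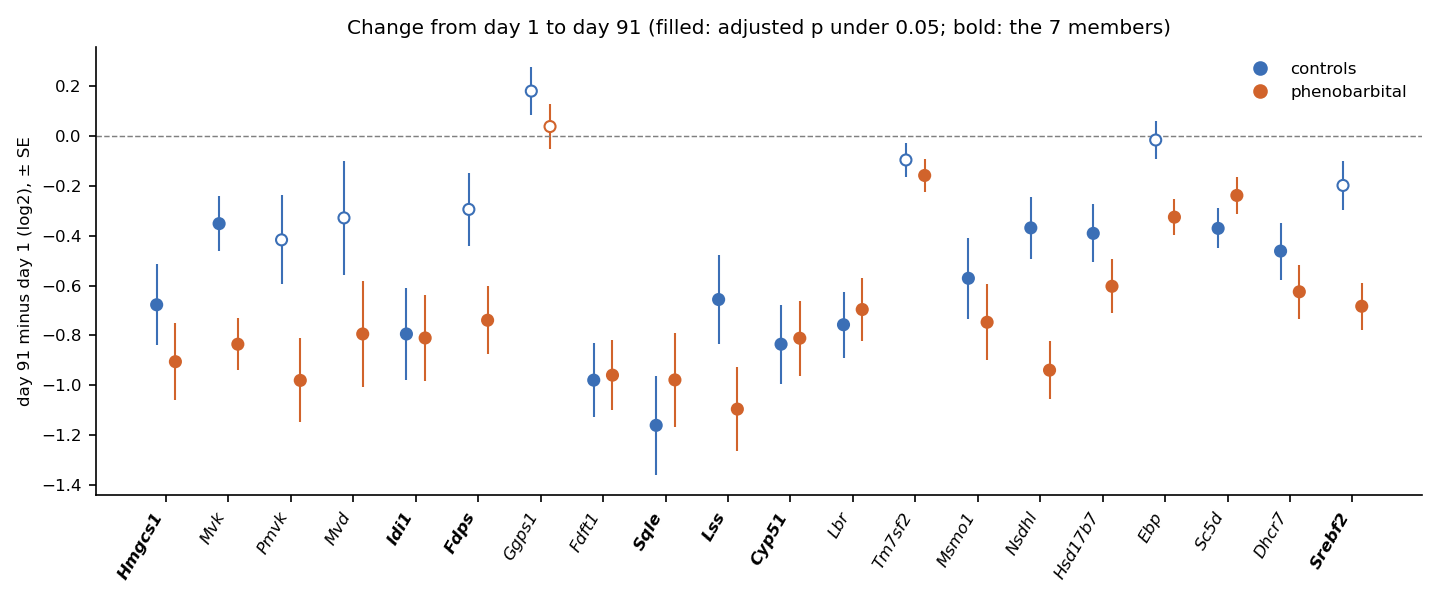
Day 91 minus day 1 in log2 signal, ± SE, in controls (blue) and in phenobarbital liver (orange), for the 7 genes (bold) and 13 other genes of cholesterol synthesis, in rough order along the route with Srebf2 last; filled points were called. Nearly all points lie below 0, and Ggps1, a branch enzyme outside the sterol route, was called in neither group.

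A list of 15 other genes of cholesterol synthesis was examined beside the members, 13 of which were measured and tested. In treated liver 12 of 13 were called lower at day 91 than at day 1 (median -0.70), all but Ggps1, which makes the geranylgeranyl group for proteins. In controls 8 of 13 were called lower (median -0.37), among them Fdft1 (squalene synthase, -0.98, SE 0.15, adjusted p = 3.82e-06) and Lbr, a sterol reductase of the nuclear envelope (-0.76, SE 0.13, adjusted p = 3.36e-05). None of the 13 was called higher in either comparison. Of all tested genes 28.0% were called lower in treated liver and 16.6% in controls.

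With phenobarbital the list was called less evenly. Of all tested genes, 15.8%, 5.64%, 11.2% and 4.62% were called higher at days 1, 7, 28 and 91, and 16.7%, 11.4%, 18.1% and 16.1% lower. The counts of this list, at most 3 of 13 in a direction, lay near or below those shares. At day 1, 3 of 13 were higher, namely Mvk (mevalonate kinase, 0.41, SE 0.11, adjusted p = 0.00428), Pmvk, the next kinase (0.46, SE 0.18, adjusted p = 0.0449), and Nsdhl, a sterol demethylase (0.39, SE 0.12, adjusted p = 0.0143). At day 7 the sterol reductase Tm7sf2 was higher (0.32) and the sterol isomerase Ebp lower (-0.20). At day 28 Mvd, which makes isopentenyl diphosphate, was higher (0.64, SE 0.21, adjusted p = 0.0237) and Ggps1 lower (-0.30), and at day 91 Ebp (-0.28) and Ggps1 (-0.27) were lower.

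Of 6 tested genes of SREBP processing, 1 was called higher and 0 lower at day 1, 2 and 1 at day 7, 1 and 1 at day 28, and 2 and 0 at day 91. Of all tested genes 15.8%, 5.64%, 11.2% and 4.62% were called higher, and 16.7%, 11.4%, 18.1% and 16.1% lower. Insig2 was called higher at days 1, 7 and 28, by 0.42, 0.49 and 0.29 (adjusted p = 0.00198, 0.000502 and 0.0237). Insig1, itself a known SREBP2 target, was called higher at day 91 alone (0.48, SE 0.13, adjusted p = 0.0102), with all treated arrays above all controls. Scap was called lower at day 7 (-0.28, SE 0.09, adjusted p = 0.0365). The spike-in mean was apart between treated and control arrays at days 1 and 7, and the 3′ minus 5′ difference at day 28. The part of both measures in the calls of all gene lists, here and below, was not tested. In controls Insig1 was lower at days 7, 28 and 91 than at day 1 (-0.47, -0.53 and -0.54). The list had 3, 1 and 2 genes called lower at these days, against 16.4%, 11.8% and 16.6% of all tested genes, and 1, 0 and 0 called higher. Rnf139, a ubiquitin ligase of the endoplasmic reticulum, was higher at days 7 (0.28) and 91 (0.23) with phenobarbital.

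Of 12 tested genes that use or export sterol, 6 were called lower in treated liver at day 1, 6 at day 7, 4 at day 28 and 2 at day 91, and none was called higher. The shares of all tested genes called lower were 16.7%, 11.4%, 18.1% and 16.1%, so the count of day 91 was at the background. At day 1 the lower genes included Scarb1, the HDL receptor (-0.89, SE 0.12, adjusted p = 8.8e-07), the sterol exporters Abcg5 (-0.72, SE 0.09, adjusted p = 7.14e-07) and Abcg8 (-0.64), and Abca1, which loads cholesterol onto HDL (-0.53). At day 91 they were Lcat (-0.40, adjusted p = 0.00118), which esterifies cholesterol in plasma, and the sterol receptor gene Nr1h3 (-0.28, adjusted p = 0.0169).

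Fatty acid synthesis genes, which answer chiefly to SREBP1c and ChREBP, had 2 of 13 called higher and 1 lower at day 1, 3 and 0 at day 7, 7 and 0 at day 28, and 1 and 0 at day 91. The shares of all tested genes called higher were 15.8%, 5.64%, 11.2% and 4.62%, and those called lower 16.7%, 11.4%, 18.1% and 16.1%. Srebf1, the sister gene of Srebf2, was lower at day 1 (-0.72, SE 0.18, adjusted p = 0.00179), when Srebf2 was higher. In controls 2 of these 13 genes were called higher at day 91 than at day 1 and 0 lower. Over all 12580 tested genes 2476 were called higher and 2082 lower, so the higher count was near the background. Of the 7 cholesterol genes 5 were called lower.

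Covariation across arrays was described on deviations from the group means, so that treatment and day do not enter it. Over 39 arrays the 15 pairs of enzymes had Pearson correlations of 0.39 to 0.90 with a median of 0.63, and Spearman correlations of 0.35 to 0.89. Cyp51 and Idi1 were the closest pair (r = 0.90), followed by Hmgcs1 with Cyp51 (0.80). Without the 2 arrays farthest from the median the 15 values ranged from 0.30 to 0.88. The 7 genes share the same arrays, labelling and normalization, so these values describe the arrays and are given without a test. For comparison, the median correlation of each member with the 12573 other tested genes was between -0.03 and 0.06. The 95th percentile of these correlations ran from 0.34 (Hmgcs1) to 0.47 (Idi1). The correlations of Idi1 with Fdps (0.39) and Lss (0.41) lay under its 95th percentile.

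Srebf2 varied apart from the enzymes. Its 6 correlations with them ran from 0.02 (Cyp51) to 0.42 (Sqle), and its correlation with the mean of the other 6 was 0.26, whereas each enzyme had 0.68 to 0.84 with the mean of its other 6. Within groups Srebf2 also spread less, with an SD of 0.15, near the 0.14 of the median gene. The 6 enzymes had SDs of 0.23 (Fdps) to 0.31 (Sqle), above those of 88.3% to 95.3% of tested genes.

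On single arrays the members went up or down together. In 12 of the 39 arrays 6 or 7 members lay above their group mean, and in 10 arrays at most 1 did. Day 1 control replicate 2 had 7 of 7 above and replicate 1 had 0 of 7. Among treated arrays of day 7, replicates 3 and 5 had 7 of 7 and replicates 1 and 2 had 0 of 7. In that group Sqle spanned 10.36 to 11.52.

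**Figure D4:**
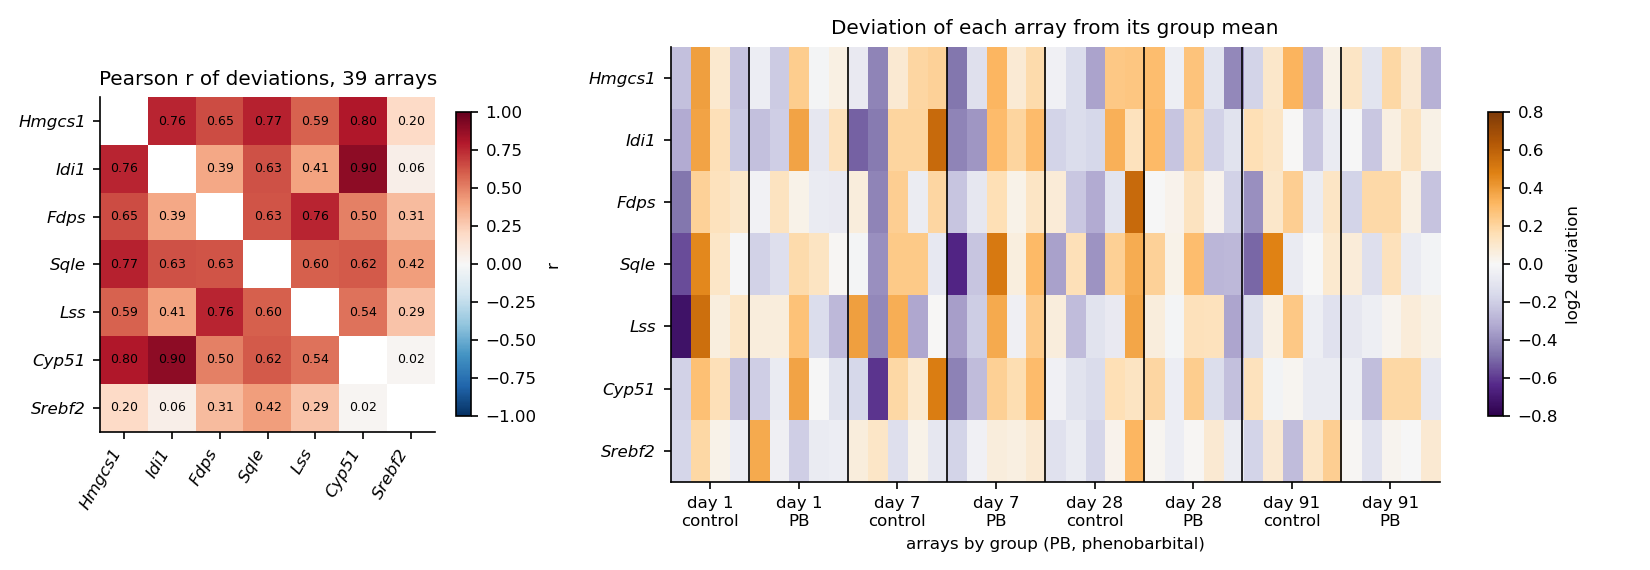
Left, Pearson correlations between the 7 genes of their deviations from group means over 39 arrays; right, the deviation of each gene (rows) on each array (columns, by group) in log2 units. Whole columns of 1 colour, such as the first 2 day 7 phenobarbital arrays, are arrays where the enzymes deviated together, and the Srebf2 row is paler.

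The 10 genes whose deviations were most like the members' mean deviation were Fdft1 (r = 0.87), Nsdhl (0.87), Msmo1 (0.85), Mvk (0.81), Hsd17b7 (0.78), Tmem97 (0.70), Slc22a26 (0.69), Cdt1 (0.67), Timeless (0.67) and Dhcr7 (0.65). Of these, 6 encode cholesterol synthesis enzymes from the list above. Of the other 4, Tmem97 encodes a membrane protein known to bind sterols, Slc22a26 a transporter of the organic anion family, Cdt1 a licensing factor of DNA replication and Timeless a protein of the replication fork. All 4 were called higher with phenobarbital at day 1, Tmem97 by 0.40 and Cdt1 by 1.39, against 15.8% of all tested genes. Of the 6 synthesis genes, Nsdhl and Mvk were called higher at day 1, and Fdft1, Msmo1, Hsd17b7 and Dhcr7 were not called. All 10 were called lower in controls at day 91 than at day 1, against 16.6% of all tested genes.

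The other cholesterol synthesis genes had a median correlation of 0.61 with the members' mean (13 genes, 0.06 to 0.87). The median was 0.08 for fatty acid synthesis genes, 0.05 for sterol use and export, -0.01 for SREBP processing, -0.19 for circadian clock genes and 0.02 over all other tested genes. Measures of the arrays moved with the members' mean less closely. The correlation was 0.50 for Kupffer cell markers, 0.26 for hepatocyte markers, -0.09 for the spike-in mean and -0.19 for the 3′ minus 5′ difference, and their part in the covariation was not tested. For Srebf2 alone the values furthest from 0 were 0.47 for lymphocyte markers, -0.45 for the spike-in mean and 0.36 for the array median.

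The probe sets of a gene did not always give the same result. Lss was represented by 1420013_s_at, a type of probe set that may match several transcripts, and its treatment differences of 0.63 at day 1 and 0.44 at day 28 were not seen with 1426913_at (-0.05 and -0.02, adjusted p = 0.864 and 0.951). Over the 39 arrays these 2 probe sets correlated at 0.84, and both were lower in controls at day 91 (-0.66 and -1.10). The third Lss probe set, 1420014_at, had a mean of 6.22 and correlated with the main one at 0.12. The second Fdps probe set had a mean of 2.93, near the lowest value of the whole table (2.42), and correlated at 0.07. For Hmgcs1 (leaving out 1441536_at, at 0.67), Cyp51, Idi1 and Srebf2 the probe sets correlated with the main one at 0.82 to 0.92, although those of Srebf2 differed in several calls given above. Sqle, the most lasting difference, rests on a single probe set (1415993_at).

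**Figure D5:**
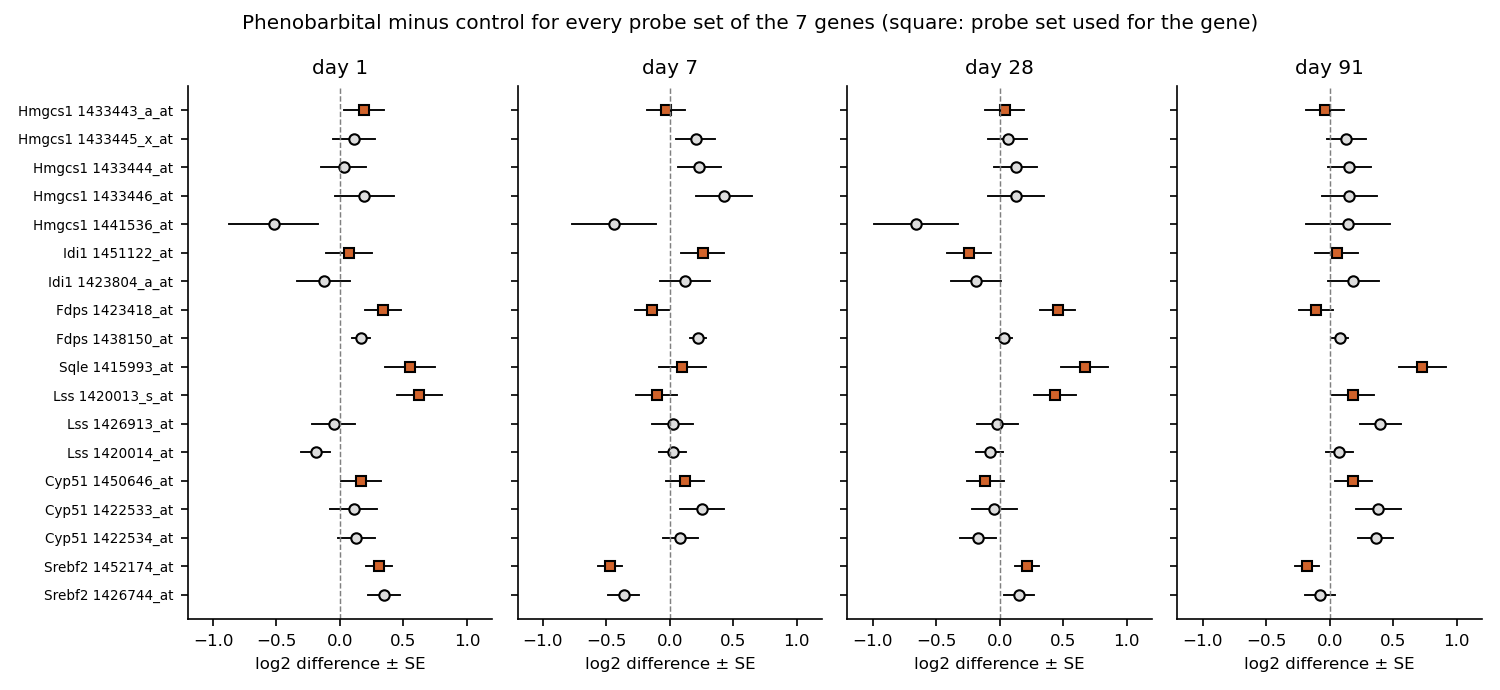
Phenobarbital minus control in log2 signal, ± SE, for all 18 probe sets of the 7 genes at the 4 days, from a fit of all probe sets singly; squares are the probe sets that represent the gene. The Lss probe sets part at days 1 and 28, where the square lies at 0.63 and 0.44 and the circles near or below 0, while both Srebf2 probe sets lie below 0 at day 7.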

How the data were processed

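Liver RNA of 39 samples was measured on Affymetrix arrays after labelling with the 3′ IVT Express procedure, per the labels' protocols. The values deposited by the authors are on a log2 scale, already normalized between arrays. The submitters' processing notes name GCOS, and how probes were combined and arrays normalized is not given in the sources used here. Durations were taken per sample, since the treatment protocol mentions 28 days only. Values were used as deposited, and as arrays hold no counts, precision rests on how many there are.

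Probe sets were named from the platform annotation, in which 34958 of 45101 had 1 symbol. For each of the 18193 genes the probe set of highest mean was used, and a gene was tested if above the array median on at least 4 arrays, which left 12580. In limma 3.58.1 (R 4.3.3) 1 mean per group was fitted over all 39 arrays, with a trend in the prior variance (31 residual and 4.46 prior degrees of freedom). P-values are 2-sided with Benjamini-Hochberg adjustment over all tested genes in each of 13 comparisons. The procedure was tested on simulated data. Named genes are the members, Cyp2b10 and genes of the other synthesis list. From the other lists, names were drawn from up to 4 called genes with the smallest p per comparison, or 2 without a call. Not all of these are given, so an unnamed gene of a list may still have been called. Genes like the members were the 10 tested genes with the highest correlation of deviations from group means. Members and lists were chosen with earlier results of these data known. Gene positions and promoter windows are from RefSeq. No batch, date or pairing is given in the labels.

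Alternatives were other scalings, filters, probe set choices, variance models, array weights, 2 technical covariates, smaller fits, leaving out each array, and leaving out together the 3 arrays that stand apart (chosen after seeing the data).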

Additional observations from a re-analysis of the deposited data

Results flagged for a closer look

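In 56 tests for an outlying array (7 genes in 8 groups) 2 arrays stood far from the rest of their group, where chance gives about 1 group in 20. Fdps read 12.372 in day 1 control replicate 1, against 12.95 to 13.05 in the other 3 controls. Srebf2 read 9.195 in day 1 phenobarbital replicate 1, where the other 4 treated arrays spanned 8.64 to 8.80. Without the first array the day 1 differences of Sqle, Lss and Srebf2 lost their calls, and without the second that of Srebf2 did (0.22, adjusted p = 0.0845).

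The phenobarbital effect differed between days for 3 members by tests of the difference itself in limma. For Srebf2 the effect changed by -0.777 from day 1 to day 7, 0.687 from day 7 to day 28, -0.394 from day 28 to day 91 and -0.484 from day 1 to day 91. For Fdps it changed by 0.594 from day 7 to day 28 and -0.56 from day 28 to day 91. For Lss it changed by -0.731 from day 1 to day 7. The spike-in mean was apart between treated and control arrays at days 1 and 7, and its part in these differences was not tested beyond the fit with it as a covariate, in which none of them was called.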

How the results depend on the processing

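The declines held best. The calls from day 1 to day 91 in controls (5 members) and in treated liver (7 members), and Sqle with phenobarbital at day 91, kept direction and call in every alternative run. Of the covariation settings, all left the median pairwise r between 0.52 and 0.71, against 0.59. No paired analysis was possible because the labels give no replicate numbers or pairing. Signal near background limits the second Fdps probe set. The cause of the changes below was not tested.

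With the spike-in mean as covariate the number of members called was 1 at day 1 (main 3), 0 at day 7 (1), 1 at day 28 (3), 0 in each of the 4 contrasts between days (2, 2, 2 and 1) and in the F test (2), and 0 for controls at day 7 (3). With the 3′ minus 5′ difference it was 1 at day 1, 0 at day 28, 1 for day 28 with 7, 0 for day 91 with 28 and 1 in the F test. With the mean of all probe sets it was 1, 1 and 0 in the contrasts of day 7 with 1, 28 with 7 and 91 with 28, and 1 in the F test. Without probe sets that may match several transcripts it was 1 for day 7 with 1 and 5 for controls at day 7. Array weights gave 2 at day 91, 4 for day 28 with 7 and 7 for controls at day 28 (main 4). Fits of only the groups compared gave 1 and 1 in the first 2 contrasts, no filter gave 1 for day 28 with 7, and leaving out the 3 arrays that stand apart gave 1 for day 28 with 7 and 1 for day 91 with 28.

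Leaving out single arrays, the members called ranged from 0 to 4 at day 1, 1 to 4 at day 28, 1 to 3 for day 7 with 1, 1 to 2 for day 28 with 7, 0 to 2 for day 91 with 28, 1 to 2 for day 91 with 1, and 1 to 6 for controls at day 28. The lowest day 1 value was without control replicate 1, and the lowest for controls at day 28 was without day 1 control replicate 2. Uncalled differences that changed sign in this way were Idi1 at day 1 (-0.034 to 0.196), Hmgcs1 at day 7 (-0.14 to 0.084), day 28 (-0.048 to 0.141) and day 91 (-0.113 to 0.043), Sqle at day 7 (-0.03 to 0.259), Cyp51 at day 7 (-0.034 to 0.244) and Lss in controls at day 7 (-0.142 to 0.28).

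Other reversals were as follows. The mean of all probe sets gave Hmgcs1 0 at day 1, 0.078 at day 7, -0.062 at day 28 and 0.109 at day 91, Idi1 -0.028 at day 1, Fdps 0.041 at day 7 and Lss -0.224 in controls at day 7. Without probe sets of several transcripts Lss was -0.049 at day 1, 0.021 at day 7, -0.018 at day 28, 0.07 for day 7 with 1 and -0.493 in controls at day 7, and Hmgcs1 was 0.231 at day 7 and 0.155 at day 91. The spike-in covariate gave at day 7 Lss 0.022, Cyp51 -0.204, Idi1 -0.065 and Fdps 0.144, Cyp51 0.01 at day 28, Idi1 -0.025 at day 91, and in controls at day 7 Lss -0.042 and Fdps -0.116. Centring on the median gave Hmgcs1 0.007 at day 7 and 0.008 at day 91. Array weights gave Idi1 -0.026 at day 1, the 3 arrays left out together gave Idi1 -0.024 at day 1 and Sqle -0.03 at day 7, and the 3′ minus 5′ covariate gave Hmgcs1 -0.005 at day 28.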
